A study of Rattus norvegicus with 6 samples.

Results

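Mitochondrial biogenesis, dynamics and protein import were described through 33 nuclear genes in primary rat spinal cord astrocytes. The genes were taken from a list by symbol, and each was read by the probe set, among those annotated to that symbol alone, with the highest mean log2 signal over all arrays. Of the 33 genes, 32 had a probe set of their own and 31 passed the filter on dim probe sets, out of 10473 genes tested across the array. Ppargc1b lay below the filter, and Timm23 shared its only probe set with 2 related entries of the annotation.

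The cultures in the hSOD1G93A group came from transgenic rats that carry mutant human superoxide dismutase 1, a model of familial amyotrophic lateral sclerosis, and those in the NonTG group lacked the transgene. Each group had 3 arrays, lettered A, B and C, and every culture was a confluent monolayer kept for 24 hours in supplemented L15 medium before RNA was taken. Total RNA, 5 ug per array, was read on the Affymetrix Rat Genome 230 2.0 array, whose values here are MAS5 signals on a linear scale. The promoter that drives the transgene, the age of the animals and the number of animals behind a culture are not given in the sources used here. Whether A, B and C were separate animals or separate cultures is not stated, and each p-value therefore reflects the spread among these arrays alone, which could be technical.

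Mitochondria are made and kept up by proteins that the nucleus encodes almost entirely: coactivators and transcription factors raise the genes of the respiratory chain and of the factors that copy and transcribe mitochondrial DNA, and the translocases of the outer and inner membranes bring the products in. Large GTPases of the dynamin family fuse and divide the network, and damaged stretches are marked for mitophagy, the removal of mitochondria by autophagy. Mutant superoxide dismutase 1 is known to associate with mitochondria in spinal cord, and astrocytes rely on their mitochondria for calcium handling, redox control and support of motor neurons.

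The arrays were alike in overall signal, with medians between 129.3 and 136.8, and their GAPDH 3' to 5' signal ratios lay between 0.996 and 1.008 in the hSOD1G93A group and between 0.954 and 1.012 in the NonTG group. The same ratios for beta-actin lay between 1.10 and 1.14 in hSOD1G93A and between 1.13 and 1.19 in NonTG, higher in NonTG within each letter. Most astrocyte markers were bright on every array: 9 of 10 were on the array and above the filter, and their summed signal was 95259 to 113890 in hSOD1G93A cultures and 101080 to 114930 in NonTG cultures. Slc1a2 was dim, at 120, 123 and 143 in hSOD1G93A and 79.5, 98.2 and 103 in NonTG, without overlap and with a log2 difference of 0.47. Gfap, Fabp7, Aldoc and Slc1a3 were lower in hSOD1G93A by value and the other astrocyte markers higher. Of 10 microglia markers 1, Laptm5, passed the filter, with the list summing to 351 to 498 in hSOD1G93A and 323 to 470 in NonTG. Fibroblast markers (7 of 8 above the filter) summed to 45078 to 61825 in hSOD1G93A and 60466 to 61372 in NonTG, sums made up mostly of collagen and Postn signal. Dimmer markers of that list that passed the filter ran the other way, with log2 differences of 2.52 for Dcn, 1.08 for Lum and 0.41 for Fbln1. The groups did not overlap in Dcn and Fbln1 but did in Lum, and Dpt, below the filter, was at -0.51. Pericyte and smooth muscle markers (6 of 8) summed to 15728 to 26076 in hSOD1G93A and 21356 to 26588 in NonTG, and hSOD1G93A B was the lowest array for both lists. Oligodendrocyte lineage markers (6 of 10 above the filter) summed to 5747 to 7684 in hSOD1G93A and 5237 to 5867 in NonTG, with Mbp at 0.78, Mag at 0.63 and Ugt8 at 0.72. The rest of those above the filter were Pdgfra at 0.25, Olig1 at 0.13 and Cnp at -0.18, and Cnp was lower in hSOD1G93A within each letter. Neuron markers (7 of 10) summed to 2823 to 3225 in hSOD1G93A and 2687 to 3114 in NonTG, and endothelial markers (2 of 8) to 325 to 493 in hSOD1G93A and 282 to 466 in NonTG. The part of these cell types in the values below was not tested. The probe set for rat Sod1 read 9781, 10860 and 10510 on hSOD1G93A arrays A, B and C and 8982, 8855 and 9429.7 on NonTG arrays. The groups did not overlap, with a log2 difference of 0.19 ± 0.069 (SE; limma unadjusted p = 0.0209, adjusted p = 0.9997). That probe set was designed for the rat gene and does not check the human transgene, and whether it also reads the human transcript was not tested.

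No gene of the set changed between hSOD1G93A and NonTG astrocytes at an adjusted p below 0.05, and the same held for all 18625 probe sets tested (0.0%). The adjusted p of every tested member was 0.9997 or higher in limma (Benjamini-Hochberg, over the whole table), and the smallest adjusted p of any probe set was 0.4004. Of the 31 members, 10 were higher and 21 lower in hSOD1G93A by value, with a median log2 difference of -0.035 beside 0.0030 over all 10473 genes. At an unadjusted p below 0.05, 1 member was higher, Timm17b, a subunit of the inner membrane import channel, where 1.35% of all genes were, and 1 was lower, Pgam5, a mitochondrial protein phosphatase, where 1.29% were. The same members were the ones whose hSOD1G93A and NonTG arrays did not overlap: 1 higher, with 3.73% of all genes so, and 1 lower, with 3.79%. In cultures read in bulk, fewer cells of a type and less RNA per cell cannot be told apart.

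**Figure D1:**
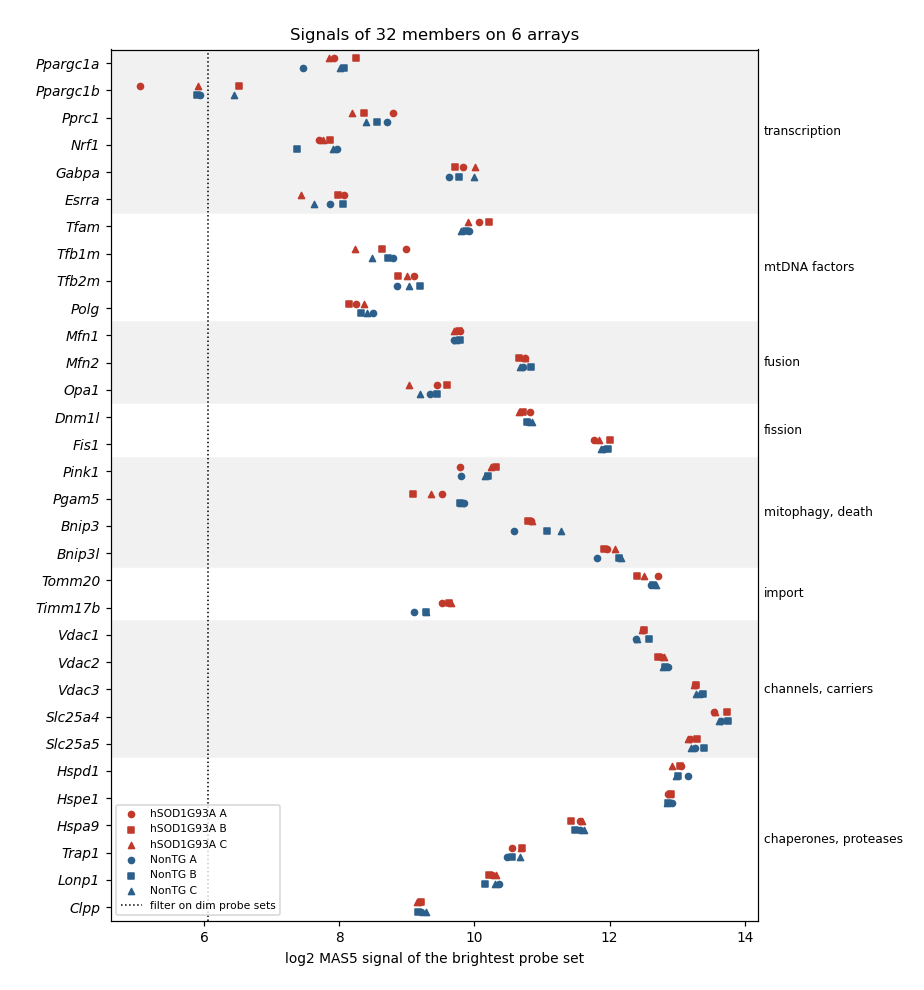
Log2 MAS5 signal (horizontal axis) of the brightest probe set of 32 members on each of 6 arrays, hSOD1G93A in red above NonTG in blue, with a marker shape per replicate letter; the dotted line is the filter on dim probe sets. In Pgam5 the red points lie left of every blue point, in Timm17b right of every blue point, and in the other tested members the colours overlap.

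The plot of signals by array shows how narrow most rows are. Signals of different probe sets are not comparable as transcript levels, because probes differ in their affinity, so each row is read across its own 6 points only.

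Among the regulators of biogenesis, 3 were higher and 2 lower by value, none passed the test, and the median log2 difference of the 5 tested was 0.019. Ppargc1a encodes PGC-1alpha, the coactivator best known for driving mitochondrial biogenesis. Its probe set read 242, 303.5 and 231 on hSOD1G93A arrays A, B and C, against 177, 268 and 258 on the NonTG arrays. The groups overlapped: NonTG A was the lowest array and hSOD1G93A B the highest. The log2 difference was 0.16 ± 0.205 (SE, n = 3 per group; limma adjusted p = 0.9997), and its 95% interval, -0.31 to 0.62, reached beyond 1.5-fold. A dimmer Ppargc1a probe set, at 92.7, 100.5 and 98.8 in hSOD1G93A and 113.0, 101.7 and 102.1 in NonTG, pointed the other way, without overlap, at -0.12 ± 0.23 (SE). The paralogue Ppargc1b was too dim to test, at 33.3, 92.0 and 60.5 in hSOD1G93A and 61.3, 59.5 and 87.4 in NonTG, where the filter lay at a signal of 66.7.

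Pprc1, the third coactivator of the PGC-1 family, had signals of 445.5, 331 and 291 in hSOD1G93A and 417, 378 and 337 in NonTG. In both groups array A was highest and array C lowest, and the difference between groups, -0.10 ± 0.18 (SE), was smaller than the drop between those letters. Nrf1, nuclear respiratory factor 1, which binds promoters of respiratory chain genes, differed by 0.019 ± 0.20. Gabpa, the DNA-binding subunit of the ETS-family factor GABP, also called nuclear respiratory factor 2, differed by 0.060 ± 0.13. Esrra, the nuclear receptor through which PGC-1alpha acts on many metabolic genes, differed by -0.022 ± 0.21. These regulators gave the widest intervals of any role group, with a median SE of 0.20 beside 0.10 over all members.

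The 4 genes that act on mitochondrial DNA showed 1 higher and 3 lower by value, with a median of -0.046 and none past the test. Tfam, the protein that packages mitochondrial DNA and bends it at its promoters, read 1068.5, 1187 and 963 in hSOD1G93A and 969.7, 939 and 894 in NonTG. It was higher in hSOD1G93A within each letter, by 0.14, 0.34 and 0.11 in A, B and C, but hSOD1G93A C lay just under NonTG A, so the groups overlapped. The log2 difference was 0.195 ± 0.11 (SE; limma unadjusted p = 0.0992, adjusted p = 0.9997), with a 95% interval of -0.045 to 0.44. Without hSOD1G93A C it was 0.27 (limma unadjusted p = 0.0454, adjusted p = 0.9999). Polg, the catalytic subunit of the mitochondrial DNA polymerase, read 303, 284 and 330.0 in hSOD1G93A and 361, 319 and 341 in NonTG. It was lower in hSOD1G93A within each letter, and hSOD1G93A C exceeded NonTG B, so here too the groups overlapped, at -0.16 ± 0.14 (SE). Tfb2m, needed to start transcription of mitochondrial DNA, and Tfb1m, which methylates the small mitochondrial ribosomal RNA, differed by -0.042 ± 0.13 and -0.049 ± 0.19.

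The motifs that the biogenesis regulators are known to bind were looked for in the promoters of the set, from 250 bases before to 50 bases after each annotated start, as given by RefSeq on the rat build GRCr8. Of the 33 genes, 28 had such a window; Vdac3, Mfn2, Pgam5, Lonp1 and Bnip3l did not. The sequences below were chosen because they belong to a regulator (Gabpa), to factors acting on mitochondrial DNA (Tfb2m and Tfam), to the chaperonin pair (Hspe1) and to the member that was higher without overlap (Timm17b). They run 5′ to 3′ on the gene's strand, and capitals mark matches on either strand to the NRF-1 core CGCATGCG, the ETS core CCGGAAG bound by GABP, and AAGGTCA, the core site of estrogen-related receptors.
Gabpa, chr11:37375014-37375313, plus strand: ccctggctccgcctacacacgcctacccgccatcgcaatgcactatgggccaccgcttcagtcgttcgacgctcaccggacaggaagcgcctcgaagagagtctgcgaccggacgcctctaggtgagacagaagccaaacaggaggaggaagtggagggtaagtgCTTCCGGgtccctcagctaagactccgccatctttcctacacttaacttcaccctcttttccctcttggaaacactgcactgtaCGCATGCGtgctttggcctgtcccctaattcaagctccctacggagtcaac
Tfb2m, chr13:93828545-93828844, minus strand: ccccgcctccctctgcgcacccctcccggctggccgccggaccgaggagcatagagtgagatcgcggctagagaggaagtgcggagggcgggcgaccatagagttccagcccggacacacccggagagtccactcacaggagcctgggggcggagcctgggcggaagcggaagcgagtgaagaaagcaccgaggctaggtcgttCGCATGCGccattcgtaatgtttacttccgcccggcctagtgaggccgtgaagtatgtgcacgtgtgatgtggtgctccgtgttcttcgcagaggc
Tfam, chr20:17355123-17355422, plus strand: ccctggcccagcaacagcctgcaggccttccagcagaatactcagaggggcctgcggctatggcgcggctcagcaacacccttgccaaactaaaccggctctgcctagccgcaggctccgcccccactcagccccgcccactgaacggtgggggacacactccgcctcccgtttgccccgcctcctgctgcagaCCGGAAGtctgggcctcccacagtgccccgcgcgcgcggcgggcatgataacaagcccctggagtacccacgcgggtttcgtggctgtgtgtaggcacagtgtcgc
Hspe1, chr9:64084077-64084376, plus strand: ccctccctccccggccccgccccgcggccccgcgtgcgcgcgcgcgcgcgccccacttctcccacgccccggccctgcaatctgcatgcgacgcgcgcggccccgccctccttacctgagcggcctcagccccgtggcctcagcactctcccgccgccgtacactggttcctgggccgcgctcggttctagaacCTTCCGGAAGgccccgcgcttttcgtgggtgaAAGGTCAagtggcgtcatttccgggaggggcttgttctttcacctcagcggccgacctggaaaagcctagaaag
Timm17b, chrX:17275291-17275590, minus strand: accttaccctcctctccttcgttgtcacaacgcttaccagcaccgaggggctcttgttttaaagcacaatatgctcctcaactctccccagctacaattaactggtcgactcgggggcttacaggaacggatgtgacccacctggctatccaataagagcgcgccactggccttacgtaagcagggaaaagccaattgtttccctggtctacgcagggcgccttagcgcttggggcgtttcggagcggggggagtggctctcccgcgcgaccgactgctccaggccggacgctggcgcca

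The NRF-1 core, which reads the same on both strands, stood in 2 of the 28 members (7.14%), Gabpa and Tfb2m, against 1.86% of all 27457 genes in the promoter table and 2.28% of the 18999 protein-coding ones. The ETS core stood in 10 (35.7%), against 9.63% of all genes and 11.6% of protein-coding ones: Gabpa, Tfam, Polg, Mfn1, Fis1 (in 1 of its windows), Tomm20, Timm23, Slc25a4, Hspd1 and Hspe1. The estrogen-related receptor site stood in 3 (10.7%), Hspe1, Trap1 and Timm23, against 4.83% of all genes and 4.05% of protein-coding ones. In Timm23 it overlapped an ETS match, and in the Hspe1 window printed it stood apart from the others. The members' windows also held more G and C, with a median of 64.0% beside 55.0% over protein-coding windows, and its part in the motif shares was not tested. Hspd1 and Hspe1 lie head to head on chromosome 9, their starts 290 bases apart, so that their windows share 211 bases and with them the same ETS matches. In Hspe1 the ETS core lies on both strands at once, as an overlapping palindrome. Timm17b, on chromosome X, held no match, and a match marks letters only, since binding was not measured. Genes with an ETS core differed in both directions: Tfam by 0.195, Gabpa by 0.060 and Mfn1 by 0.014, with Polg at -0.16, Tomm20 at -0.11, Slc25a4 at -0.058, Fis1 at -0.049, Hspd1 at -0.039 and Hspe1 at -5.07e-05, none past the test.

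None of the 5 fusion and fission genes passed the test: 2 of the 3 fusion genes were higher by value, and both fission genes were lower, with medians of 0.014 and -0.059. Mfn2, a GTPase that joins outer membranes and tethers mitochondria to the endoplasmic reticulum, read 1718, 1610 and 1724 in hSOD1G93A and 1689, 1825 and 1642 in NonTG. All hSOD1G93A values but that of array B lay inside the NonTG range, and the difference was -0.028 ± 0.085 (SE), with a 95% interval of -0.22 to 0.16. Its partner Mfn1 differed by 0.014 ± 0.094. Opa1, which fuses inner membranes and holds cristae in shape, read 699, 771 and 522 in hSOD1G93A and 647, 695 and 586 in NonTG. In both groups B was highest and C lowest, and the spread between letters exceeded the difference of 0.032 ± 0.155; a second Opa1 probe set gave 0.16 ± 0.17.

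Dnm1l encodes Drp1, the GTPase that constricts and divides mitochondria. Its signals were 1812.5, 1689.9 and 1625 in hSOD1G93A and 1776, 1756 and 1843.5 in NonTG, overlapping, with hSOD1G93A C lowest and NonTG C highest. The log2 difference was -0.069 ± 0.084 (SE) with a 95% interval of -0.26 to 0.12, and its second probe set gave -0.19 ± 0.18. Fis1, an outer membrane protein linked to recruitment of the fission machinery, read 3483, 4125 and 3666 in hSOD1G93A and 3877, 4028 and 3737 in NonTG. The hSOD1G93A arrays held both the lowest and the highest value, and the difference was -0.049 ± 0.085.

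The 4 genes of mitophagy and cell death were 1 higher and 3 lower by value, with a median of -0.10, and Pgam5 had the lowest difference of the set. This phosphatase sits in mitochondrial membranes, and its known substrates include Drp1 and the mitophagy receptor Fundc1. It read 732, 545 and 657 in hSOD1G93A, against 925, 883 and 893 in NonTG. Every hSOD1G93A array was below every NonTG array, and the NonTG arrays lay much closer together, with log2 SDs of 0.21 in hSOD1G93A and 0.035 in NonTG. The log2 difference was -0.49 ± 0.125 (SE, n = 3 per group), a 0.711-fold signal with a 95% interval of 0.585 to 0.864. Within letters it was -0.34, -0.695 and -0.44 in A, B and C. The unadjusted p was 0.00326 and the adjusted p 0.9997 in limma, and no permutation of 3 arrays against 3 can give a p below 0.1. A second Pgam5 probe set was too dim to test, at 14.7, 27.6 and 29.0 in hSOD1G93A and 47.7, 29.0 and 49.1 in NonTG.

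Pink1, the kinase that marks damaged mitochondria for removal, differed more between letters than between groups. It read 879.5, 1277 and 1209.5 in hSOD1G93A and 896, 1179 and 1147 in NonTG: array A was lowest in both groups, and the difference was 0.055 ± 0.16 (SE). Bnip3, an outer membrane mitophagy receptor known to be induced by hypoxia, read 1824, 1774 and 1844 in hSOD1G93A and 1544, 2154.5 and 2488 in NonTG. The hSOD1G93A arrays lay within a narrow band, inside a wide NonTG range in which A was lowest and C highest. The difference was -0.16 ± 0.15 (SE), with 0.24, -0.28 and -0.43 within A, B and C. Without NonTG A it was -0.35 (limma unadjusted p = 0.00742, adjusted p = 0.990), so this value rests on that array. Its relative Bnip3l differed by -0.046 ± 0.105 and had the same order of letters in NonTG, A lowest and C highest.

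**Figure D2:**
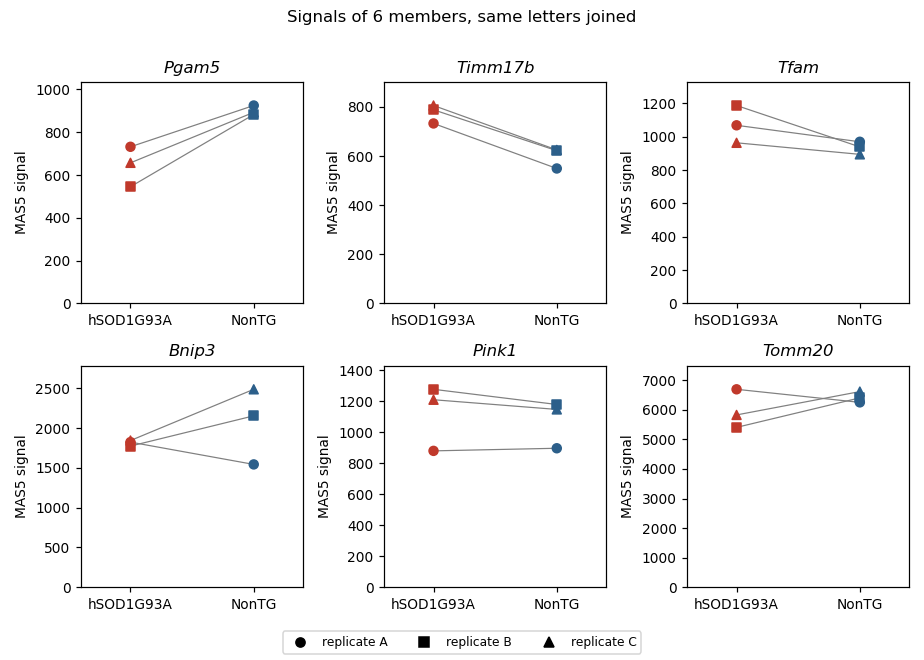
MAS5 signal (vertical axis, from 0) of 6 members in hSOD1G93A (left, red) and NonTG (right, blue); each point is an array and lines join arrays with the same letter. All lines of Pgam5 climb and all lines of Timm17b and Tfam descend toward NonTG, while in Bnip3 and Tomm20 the A line runs against the others and in Pink1 array A is low in both groups.

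The plot of joined letters sets Pgam5, Timm17b and Tfam, which differed in the same direction within every letter, beside members that did not. For Tomm20, the outer membrane receptor for proteins with a presequence, signals were 6696, 5407 and 5829 in hSOD1G93A and 6254, 6407 and 6619 in NonTG. Arrays B and C were below every NonTG array, but hSOD1G93A A was above them all, and the difference was -0.11 ± 0.088 (SE). Leaving out hSOD1G93A A gave -0.19 (limma unadjusted p = 0.0358, adjusted p = 0.773), and a second Tomm20 probe set gave 0.010 ± 0.080.

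Timm17b had the highest difference of the set. It is a core subunit of the TIM23 complex, through which presequence proteins cross the inner membrane. Its signals were 733, 788 and 806 in hSOD1G93A, against 549, 622 and 625 in NonTG. Every hSOD1G93A array was above every NonTG array, and A was the lowest array in both groups. The log2 difference was 0.375 ± 0.11 (SE, n = 3 per group), a 1.30-fold signal with a 95% interval of 1.10 to 1.54, and it was even across letters, at 0.42, 0.34 and 0.37 in A, B and C. The unadjusted p was 0.00683 and the adjusted p 0.9997 in limma. Its paralogue Timm17a, which fills the same place in the complex, was 2443.5, 2107 and 2349.6 in hSOD1G93A and 2445, 2175 and 2352 in NonTG. Those pairs of Timm17a values nearly coincided within letters A and C, and the difference was -0.016 ± 0.090; the contrast of the paralogues was not tested. The probe set annotated to Timm23, Timm23b and a Timm23 pseudogene together read 5395, 5879 and 5352 in hSOD1G93A and 5845, 6076 and 5701 in NonTG, a difference of -0.085 ± 0.072 that cannot be given to Timm23 alone.

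The channels and carriers that pass metabolites across the membranes were 1 higher and 4 lower by value, with a median of -0.067, none past the test, and all 5 intervals within 1.5-fold. Vdac3, an outer membrane porin, read 9857, 9927 and 9689 in hSOD1G93A and 10416, 10644 and 9904 in NonTG. It was lower within each letter, yet hSOD1G93A B just exceeded NonTG C, and the log2 difference was -0.071 ± 0.063 (SE) with a 95% interval of -0.21 to 0.072. Vdac2, another porin, which also restrains the cell death protein Bak, read 6913, 6733 and 7183.5 in hSOD1G93A and 7487, 7258 and 7069 in NonTG. Only hSOD1G93A C reached the NonTG range, and the difference was -0.067 ± 0.066. Vdac1, the best studied porin, differed by 0.029 ± 0.076; a second Vdac1 probe set, at 3418, 3489 and 3364 in hSOD1G93A and 3340.2, 3249.8 and 3363 in NonTG, barely separated the groups, at 0.045 ± 0.070. The ADP/ATP carriers Slc25a4 and Slc25a5, which exchange ATP made in the matrix for ADP, were lower within each letter, with differences of -0.058 ± 0.075 and -0.075 ± 0.076 over the groups, and their arrays overlapped.

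The matrix chaperones and proteases were 1 higher and 5 lower by value, with a median of -0.023 and none past the test. Trap1, the mitochondrial member of the Hsp90 family, read 1500, 1669.6 and 1657 in hSOD1G93A and 1428, 1506 and 1629 in NonTG. It was higher within each letter, the groups overlapped, and the difference was 0.082 ± 0.092 (SE). Hspd1, the chaperonin Hsp60 that folds imported proteins, read 8551, 8464 and 7759 in hSOD1G93A and 9164, 8223 and 8086 in NonTG. A was highest and C lowest in both groups, and the difference was -0.039 ± 0.077. Its lid Hspe1, or Hsp10, whose promoter window is shared with Hspd1, had a difference whose 95% interval ran from -0.14 to 0.14, with group means of 12.88 on the log2 scale in hSOD1G93A and in NonTG. Hspa9, the Hsp70 that pulls proteins through the TIM23 complex, differed by -0.032 ± 0.081. The matrix proteases Lonp1, which degrades oxidised proteins and also Tfam, and Clpp, which works with the unfoldase Clpx, differed by -0.015 ± 0.094 and -0.035 ± 0.10.

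**Figure D3:**
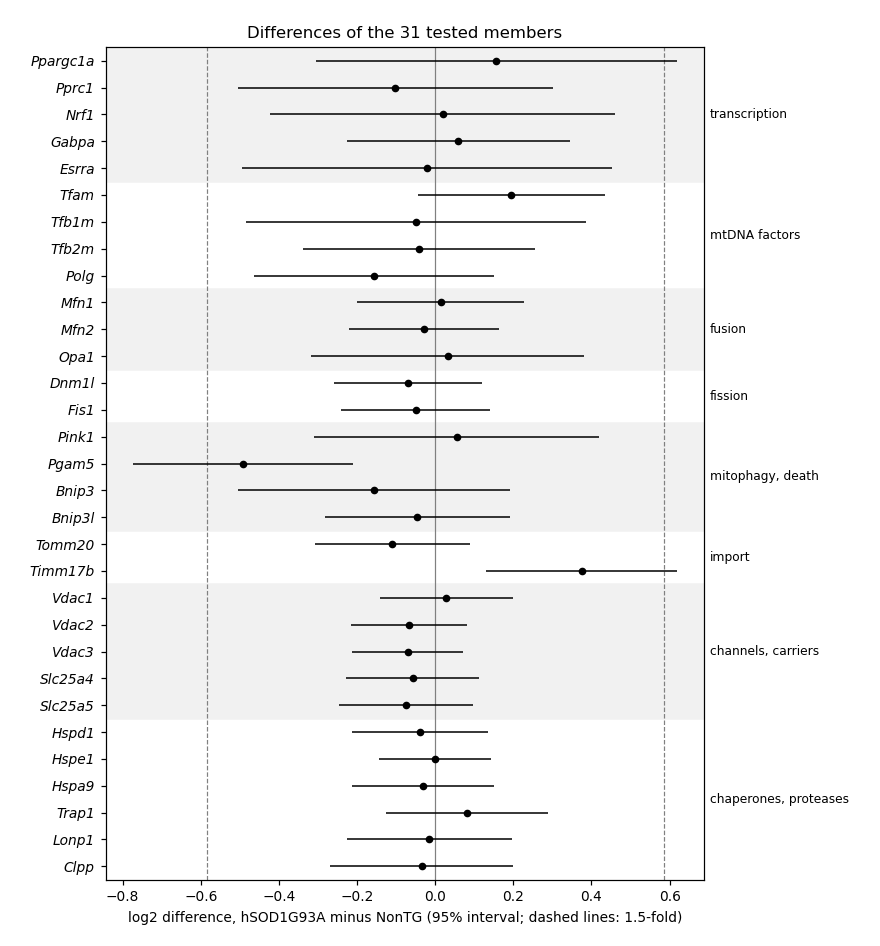
Log2 difference, hSOD1G93A minus NonTG (horizontal axis), of the 31 tested members in order of role, with bars for the 95% interval from limma and dashed lines at 1.5-fold. The intervals of Pgam5 and Timm17b leave out 0, and those 2 and Ppargc1a reach past a dashed line.

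The plot of differences shows how far the 95% interval of each member reached. For 28 of the 31 members (90.3%) the 95% interval lay within 1.5-fold in both directions, against 70.8% of all genes, and for all 31 it lay within 2-fold, against 92.9%. The exceptions at 1.5-fold were Ppargc1a, Pgam5 and Timm17b. A p that misses the threshold does not show that the groups were alike. For most members the interval left out differences in signal of 1.5-fold or more, each interval being unadjusted for the number of genes. Like the p-values, the intervals reflect the spread among these arrays alone, which could be technical. Whether the bound holds between animals or cultures therefore cannot be told.

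**Figure D4:**
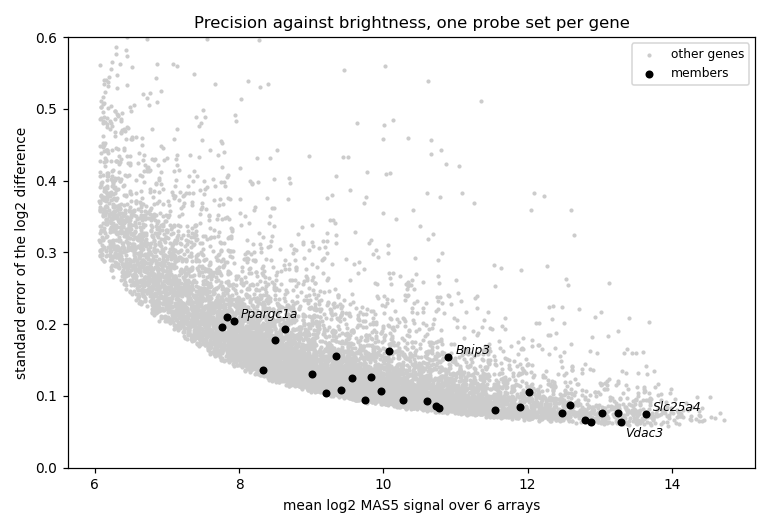
Standard error of the log2 difference (vertical axis) against mean log2 MAS5 signal over 6 arrays (horizontal axis) for each gene tested, members in black and other genes in grey; 27 genes with an SE above 0.6 are off the plot. The members lie mostly to the right, where errors are small, with Ppargc1a on the dim side and Slc25a4 the brightest.

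The plot of precision against brightness places the members among all genes. Their median SE was 0.10 beside 0.14 over all genes, and the median SD within groups was 0.096 beside 0.17. Their probe sets were bright, at a median percentile of 85.9 and with 14 above the 90th, so the narrower intervals went with brighter signals. Bnip3 had a larger SE than members of like brightness, with log2 SDs of 0.029 in hSOD1G93A and 0.35 in NonTG.

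The replicate letters carried part of the spread. Arrays with the same letter deviated together across the 18625 tested probe sets, with correlations of 0.30, 0.25 and 0.20 in A, B and C. Arrays of different letters gave -0.28 to 0.025. Deviations were taken from each group's own mean, so positive values for the same letter by themselves make those for different letters lean negative. Of the 31 members, 10 had the same order of letters in both groups (32.3%, against 25.3% of all genes), among them Pprc1, Tfb1m, Opa1, Pink1, Slc25a5 and Hspd1. Within letters 3 members were higher in hSOD1G93A in all 3 (9.68%, against 13.1% of genes): Tfam, Timm17b and Trap1. Lower in all 3 were 6 members (19.4%, against 13.0%): Polg, Pgam5, Vdac3, Slc25a4, Slc25a5 and Hspa9. In a fit with the letter as a replicate block, Timm17b stayed the only member higher at an unadjusted p below 0.05, where 2.85% of all genes were, and Pgam5 the only one lower, where 3.54% were. Their adjusted p values were then 0.834 and 0.809 in limma.

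**Figure D5:**
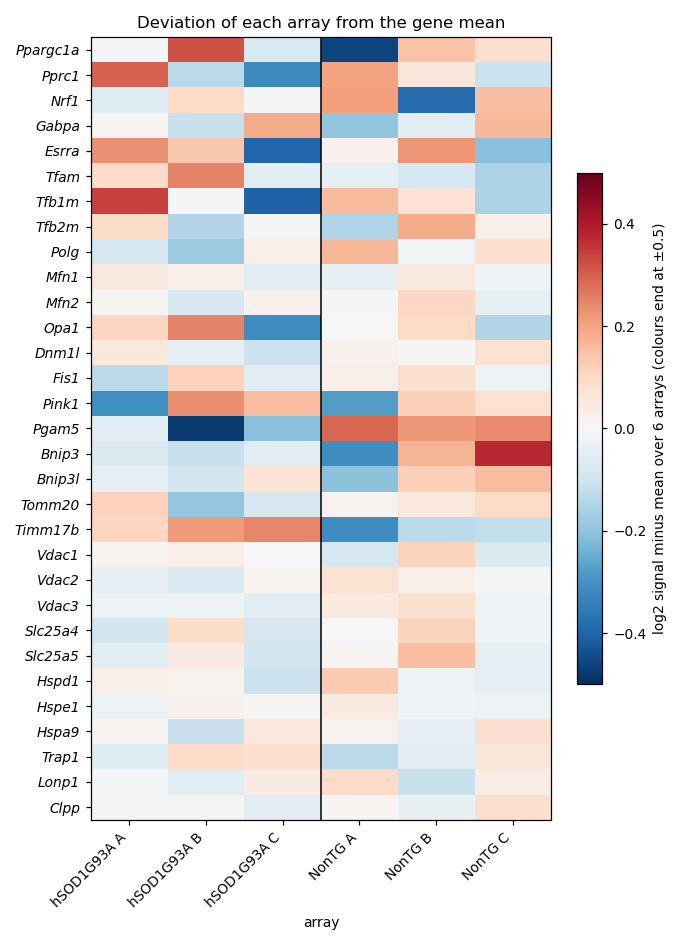
Log2 signal minus the mean over 6 arrays (colour, red above and blue below the mean, ending at 0.5) for the 31 tested members (rows, in order of role) on hSOD1G93A arrays (left of the line) and NonTG arrays (right). Pgam5 is blue on the left and red on the right, Timm17b the reverse, and rows such as Pprc1, Opa1 and Pink1 repeat their letter pattern on both sides.

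In the map of deviations, every array holds members above and members below their mean. The median deviation over members was -0.0044, 0.0060 and -0.053 on hSOD1G93A A, B and C and 0.013, 0.058 and -0.0069 on NonTG A, B and C, which overlap. Within letters this median was lower in hSOD1G93A by 0.018, 0.052 and 0.046 in A, B and C, where over all genes it differed by 0.0024, 0.014 and -0.0042. The median of the members' own within-letter differences was 0.029, -0.056 and -0.046, so its sign in A was opposite. The SDs of the median deviation over arrays were 0.031 in hSOD1G93A and 0.033 in NonTG. Members higher in hSOD1G93A numbered 17 of 31 within A, 12 within B and 10 within C, where 49.5%, 51.0% and 49.9% of all genes were.

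A wider list of 122 gene names covered the same functions. Of these, 105 were tested, 56 were higher and 49 lower by value, with a median of 0.015, and none passed the adjusted test. At an unadjusted p below 0.05, 1 was higher and none lower, beside 1.35% and 1.29% of all genes. With the replicate block 1 was higher and 2 were lower, beside 2.85% and 3.54% of all genes. Of the 105, 9 were higher and 2 were lower without overlap of the groups, beside the 3.73% and 3.79% of all genes given above. Among 37 further import genes, 17 were higher and 20 lower. Pam16, a regulatory subunit of the import motor, read 1572, 1645 and 1612 in hSOD1G93A and 1817, 1839.7 and 1781 in NonTG, without overlap and at -0.17 ± 0.079 (SE; limma unadjusted p = 0.0561, and 0.0492 with the replicate block). Tomm34, a cytosolic cochaperone for precursor proteins, differed by 0.36 ± 0.17, with array B of hSOD1G93A at 677 far above the others. Dnajc19, a partner of the import motor, differed by 0.11 ± 0.079.

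Among 22 further dynamics genes, 9 were higher and 13 lower. Yme1l1, an inner membrane protease that cuts Opa1, read 3348, 2616 and 2883 in hSOD1G93A and 3976, 3415 and 3014.5 in NonTG. It was lower within each letter while the groups overlapped, at -0.23 ± 0.12 (SE; limma unadjusted p = 0.0912, and 0.0147 with the replicate block). Chchd3, a subunit of the complex that shapes cristae, was higher without overlap by 0.13 ± 0.078, and Trak1, an adaptor for transport of mitochondria along microtubules, differed by 0.17 ± 0.12.

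Of 17 further genes of mitophagy and of proteases, 12 were higher and 5 lower, 4 of the 17 higher without overlap, where 3.73% of all genes were. Spg7, the paraplegin subunit of the matrix-facing inner membrane protease, read 576, 819 and 588 in hSOD1G93A and 573, 446 and 452 in NonTG. Its lowest hSOD1G93A value barely cleared the highest NonTG value, and within letters the difference was 0.0059, 0.88 and 0.38, with 0.42 ± 0.17 overall (SE; limma unadjusted p = 0.0331, adjusted p = 0.9997). Parl, the rhomboid protease that cleaves Pink1 and Pgam5, read 1358, 1256 and 1304 in hSOD1G93A and 1172, 1176 and 1151 in NonTG, at 0.16 ± 0.086. Its groups did not overlap, nor did those of Afg3l1, another subunit of the same protease complex as paraplegin, at 0.185 ± 0.10.

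The 29 further genes of biogenesis and mitochondrial DNA were 18 higher and 11 lower, with a median of 0.051. Fastkd2, which acts on mitochondrial RNA, read 393, 362 and 357 in hSOD1G93A and 308, 309 and 304 in NonTG, without overlap and with NonTG arrays within a narrow band, at 0.27 ± 0.13 (SE). Polrmt, the RNA polymerase that works with Tfam and Tfb2m, was higher without overlap at 0.475 ± 0.25, its values being 139, 228 and 137 in hSOD1G93A and 126, 123 and 105 in NonTG. Endog, a mitochondrial nuclease, was lower without overlap at -0.29 ± 0.16. The unadjusted p values of these genes in limma were 0.0605, 0.0900 and 0.101, and none passed the adjusted test.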

How the data were processed

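The deposited table gives a linear intensity for each probe set and array, computed by the authors with MAS5; the submitters' processing notes name GCOS 1.4 as well. The design text also speaks of GC-RMA and log values, but the values used here are linear, with a trimmed mean of 500.16 to 500.17 on every array. Values were log2-transformed as they stood, without a pseudocount or renormalization. The 57 control probe sets were left out, as were those at or below the 40th percentile of mean log2 value, a signal of 66.7, which left 18625 probe sets. Of 31042 non-control probe sets, 20826 had 1 gene symbol, 436 several and 9780 none in the platform annotation; those with several named none, and 20758 of the probe sets with 1 symbol were matched by Entrez identifier.

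The hSOD1G93A and NonTG arrays, 3 each, were compared two-sided with limma 3.58.1 (R 4.3.3; lmFit followed by eBayes, trend on). P-values were adjusted by Benjamini-Hochberg across the 18625 probe sets and called below 0.05. The procedure was run on simulated data, with changes of 2-fold or more and without shared deviations of same-lettered arrays. That run does not cover smaller differences. The number of arrays limits the precision. Same-lettered arrays deviated together in all 3 letters (the lowest correlation was 0.20), so a fit with the letter as a block was run. The letters come from the labels, which do not state that arrays of the same letter are pairs. The members and lists were chosen with earlier results of these data known. Values on every array are given for members without overlap and for the 2 members of each role with the smallest unadjusted p. Of each wider list, up to 3 genes with the smallest p are named. Timm17a, the array values of Pink1 and the further probe sets of members were added after their values were seen. Probe sets of close relatives, such as the porins or the ADP/ATP carriers, can cross-hybridise. The alternatives covered normalization, pseudocount, filters, choice of probe sets, trend, array weights, the block and leaving out each array. Promoters are RefSeq windows on GRCr8. Presequences and protein sequences were not analysed here.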

Additional observations from a re-analysis of the deposited data

How the results depend on the processing

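No probe set and no member passed the adjusted threshold under any of 15 alternatives; the smallest adjusted p over the whole table was 0.151, with the replicate block, and over the members 0.745. The count of genes at an unadjusted p below 0.05, 276 as reported, was 669 with the replicate block, 471 with array weights, 423 with no filter on dim probe sets, and 167 (without NonTG C) to 713 (without hSOD1G93A A) when single arrays were left out; the cause was not tested. With the replicate block Pam16 and Yme1l1 of the wider list also passed that unadjusted level, both lower in hSOD1G93A, where 3.54% of all genes were. The block changed no call at the adjusted threshold and none of a member. The count of members at that p was 2 or 3 in each alternative, the other being Bnip3 without NonTG A, Tomm20 without hSOD1G93A A or Tfam without hSOD1G93A C. Pgam5 stayed below it in all 15, with differences of -0.67 to -0.38, and so did Timm17b, with 0.314 to 0.415. The members' median ranged from -0.045 with array weights to -0.017 after quantile normalization. Of 462 differences of single members, 459 moved by less than 1 SD of the replicates; the others were Pgam5 (-0.67) and Lonp1 (0.22) with the mean over a gene's probe sets, and Vdac3 (-0.013) after quantile normalization. The sign changed under some alternative for 18 members and under none for 13. Ppargc1b, below the filter, was too dim to compare.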
